A study of Mus musculus with 2 samples.

Results

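The nuclear-encoded respiratory chain genes were taken by symbol from the 32285 genes of the deposited count files: all symbols that begin with Ndufa, Ndufb, Ndufc, Ndufs, Ndufv, Uqcr, Sdh, Cox4, Cox5, Cox6, Cox7, Cox8 or Atp5. Of 98 such symbols, 93 had at least 20 unique molecular identifiers (UMIs, each standing for 1 captured RNA molecule) in each library and were kept. The other 5 were Ndufa4l2 with 5 and 2 UMIs, Cox4i2 with 2 and 2, and Cox7b2, Cox8b and Cox8c with 0 in both libraries, where a count of 0 allows up to 3 UMIs per library. The kept gene with the fewest UMIs, Cox6b2, had 246 and 245, well above the minimum. The 93 genes held 2374762 and 1102553 UMIs, and the highest was Cox8a in control 1 (95591) and Cox6c in control 2 (42259).

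Single-cell suspensions from the proximal small intestine of C57BL/6 mice were measured in 2 libraries. The series concerns the M1 and M3 muscarinic receptors; 1 library is titled M1 Control and the other M3 Control, and they are called control 1 and control 2 here. A villus fraction released with EDTA and a crypt fraction released with an enzyme were pooled before 3′ libraries were made with a 10x Genomics kit. Age, alleles other than the strain and any agent are not given for these libraries. The labels also do not say that the 2 suspensions came from separate animals. Every p-value therefore measures only how far differences between groups of cells vary between these 2 libraries, once their overall difference is taken out. This spread may be technical.

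The respiratory chain lies in the inner mitochondrial membrane. Complex I takes electrons from NADH and complex II from succinate, complex III passes them to cytochrome c and complex IV passes them to oxygen, and ATP synthase uses the proton gradient built on the way to make ATP. Most subunits are encoded in the nucleus, made in the cytosol and imported, while the mitochondrial genome encodes a few core subunits of complexes I, III and IV and of ATP synthase, here the 13 genes whose symbols begin with mt-. In the small intestine, stem and progenitor cells divide in the crypts, and their absorptive daughters, the enterocytes, move up the villus, take up nutrients with ion-coupled transporters that need ATP, and are shed near the tip.

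By role, the 93 genes were 7 core and 31 accessory subunits of complex I, 4 subunits of complex II, 8 of complex III, 13 of complex IV, 17 of ATP synthase, and 13 that are no subunits, mostly assembly factors such as Ndufaf6 and Sdhaf1 and also Cox7a2l, which takes part in joining complexes into supercomplexes. Ndufa4 was counted by its symbol with complex I, although its protein has been placed in complex IV. Ndufb1-ps was also counted by its symbol, as an accessory subunit of complex I, although GENCODE M21 annotates it as a non-coding RNA gene. Several subunits have tissue isoforms encoded by separate genes: Cox7a1, Cox6a2 and Cox8b are known from heart and skeletal muscle, Cox6b2 from testis, and Cox7a2, Cox6a1, Cox6b1 and Cox8a are the widespread forms. In GRCm38 with GENCODE M21 annotation, Cox7a1 is a plus strand gene at chr7:30184144-30186078, Cox6b2 a minus strand gene at chr7:4751792-4753094, and neither overlaps another annotated gene. Cox6a2, also on the minus strand, spans chr7:128205435-128206387 and overlaps Itgad on the other strand. Of the 93 genes, 44 overlap another annotated gene, 36 of them on the other strand, and whether strand was used in counting is not given in the sources used here. Many small subunits also have processed pseudogene copies in the mouse genome, and how reads matching several places were treated is not given either, so single-gene levels of these carry that uncertainty.

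The promoter windows below, 250 bases before to 50 after the RefSeq start of the gene (GRCm38.p6, 5′ to 3′ on the strand of the gene), belong to complex IV isoforms on which the results turn. Capitals mark matches to GCGC, any 1 base and TGCGC in a row, the letters of a site for the factor NRF1, or to CCGGAAG, the letters of a site for ETS family factors, searched on both strands. The windows lie at chr7:30183921-30184220 on the plus strand for Cox7a1, and on the minus strand at chr9:79759804-79760103 for Cox7a2, chr7:4753045-4753344 for Cox6b2, chr7:30626065-30626364 for Cox6b1 and chr5:115348909-115349208 for Cox6a1.
Cox7a1: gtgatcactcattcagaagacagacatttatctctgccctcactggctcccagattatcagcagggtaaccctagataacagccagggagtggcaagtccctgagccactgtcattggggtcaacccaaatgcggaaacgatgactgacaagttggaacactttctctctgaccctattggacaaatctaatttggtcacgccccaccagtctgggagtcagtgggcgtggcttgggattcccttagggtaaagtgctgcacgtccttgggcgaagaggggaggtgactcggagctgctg
Cox7a2: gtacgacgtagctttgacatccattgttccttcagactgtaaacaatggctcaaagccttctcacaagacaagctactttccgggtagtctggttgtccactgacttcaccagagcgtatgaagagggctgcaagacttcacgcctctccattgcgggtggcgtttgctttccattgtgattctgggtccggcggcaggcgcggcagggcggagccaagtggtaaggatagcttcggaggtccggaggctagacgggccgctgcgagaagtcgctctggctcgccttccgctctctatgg
Cox6b2: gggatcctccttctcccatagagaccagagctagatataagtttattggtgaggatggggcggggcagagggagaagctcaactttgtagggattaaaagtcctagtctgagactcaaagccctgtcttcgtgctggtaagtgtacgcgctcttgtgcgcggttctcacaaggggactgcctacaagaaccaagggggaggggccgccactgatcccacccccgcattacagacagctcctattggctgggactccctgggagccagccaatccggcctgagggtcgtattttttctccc
Cox6b1: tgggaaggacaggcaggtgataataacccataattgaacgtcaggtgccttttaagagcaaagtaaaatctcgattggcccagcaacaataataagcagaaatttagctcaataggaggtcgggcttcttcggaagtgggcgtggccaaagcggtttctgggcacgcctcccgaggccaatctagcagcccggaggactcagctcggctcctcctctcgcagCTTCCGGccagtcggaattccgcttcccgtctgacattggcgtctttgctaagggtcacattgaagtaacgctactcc
Cox6a1: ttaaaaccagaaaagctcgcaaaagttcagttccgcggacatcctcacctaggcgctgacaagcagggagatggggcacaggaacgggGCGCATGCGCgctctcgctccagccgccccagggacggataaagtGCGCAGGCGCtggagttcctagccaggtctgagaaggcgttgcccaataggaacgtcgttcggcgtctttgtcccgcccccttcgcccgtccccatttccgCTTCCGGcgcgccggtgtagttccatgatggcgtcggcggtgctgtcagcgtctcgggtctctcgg
The Cox6a1 window held 2 matches to the NRF1 letters and 1 to the ETS letters, and the Cox6b1 window 1 ETS match. The windows of Cox7a1, Cox7a2 and Cox6b2 held none of either. Windows were matched for 77 of the 93 genes: the NRF1 letters were found in 21 (27.3%) against 4.6% of all 32851 windows, and CCGGAAG was found in 22 (28.6%) against 8.86%. The letters CCAAT were found in 34 (44.2%) against 37.4% of all windows. For each of these letters a gene counted if any of its windows matched, while the share over all windows counted every window by itself. A match is a description of the letters in the window and was not linked to binding.

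The libraries held 9342 and 7109 barcodes, of which 7115 cells with 44907552 UMIs and 4714 cells with 27149001 UMIs passed the filters; 17 barcodes occurred in both libraries before filtering and 8 after it. Clustering without these 93 genes gave 27 clusters. Listed markers named 8 of them enterocyte-like (3429 and 2275 cells), 2 progenitor-like (603 and 316) and 5 T or NK cell-like (2270 and 1445), and left 4 unnamed. Among the progenitor-like cells, 35 of control 1 and 14 of control 2 held more pan-immune than pan-epithelial marker UMIs. In 2850 of the 3429 and 1809 of the 2275 enterocyte-like cells under 1% of the UMIs came from mt- genes. Levels below are in CPM, the usual scaling of counts to a common library size, taken over nuclear-encoded UMIs, or for a sum of genes the percent of nuclear-encoded UMIs. Levels of different genes are not compared, since no length correction applies to them.

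Enterocyte-like cells gave the highest share of their nuclear-encoded UMIs to the respiratory chain genes, 8.37% in control 1 and 6.65% in control 2 (mean 7.51% ± 1.21, SD, n = 2). Tuft-like cells (19 and 8 cells), the chemosensory cells of the epithelium, followed with 5.89% and 5.75%, and progenitor-like cells with 5.46% and 5.48%. The 3 classes did not overlap in these sums, in which deep cells weigh most. Ribosomal protein genes made up 8.10% and 4.27% of nuclear-encoded UMIs in enterocyte-like cells. They made up 7.80% and 10.4% in tuft-like and 29.3% and 22.3% in progenitor-like cells. Their part in the order of these classes was not tested. The median cell held 9.64% and 8.91% in enterocyte-like, 5.4% and 4.88% in tuft-like and 5.89% and 5.19% in progenitor-like cells, so tuft-like and progenitor-like cells changed places. Goblet-like cells, which secrete mucin, were at 1.49% and 1.04%, enteroendocrine-like cells at 1.63% and 1.60% (24 and 11 cells), and Paneth-like cells at 0.867% and 1.09% (16 and 13 cells). The 3 secretory classes lay below the 3 others of the epithelium in both libraries. Immune classes were at 3.15% and 4.02% (myeloid-like), 2.22% and 1.82% (T or NK cell-like) and 1.09% and 1.41% (B or plasma cell-like), and erythroid-like cells at 2.19% and 1.24%. Hemoglobin made up 63.6% and 74.2% of erythroid-like UMIs, and without it their share was 6.09% and 4.91%. The enterocyte-like share was 5.61 and 6.38 times the goblet-like share and 3.77 and 3.66 times the T or NK cell-like share within control 1 and control 2.

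**Figure D1:**
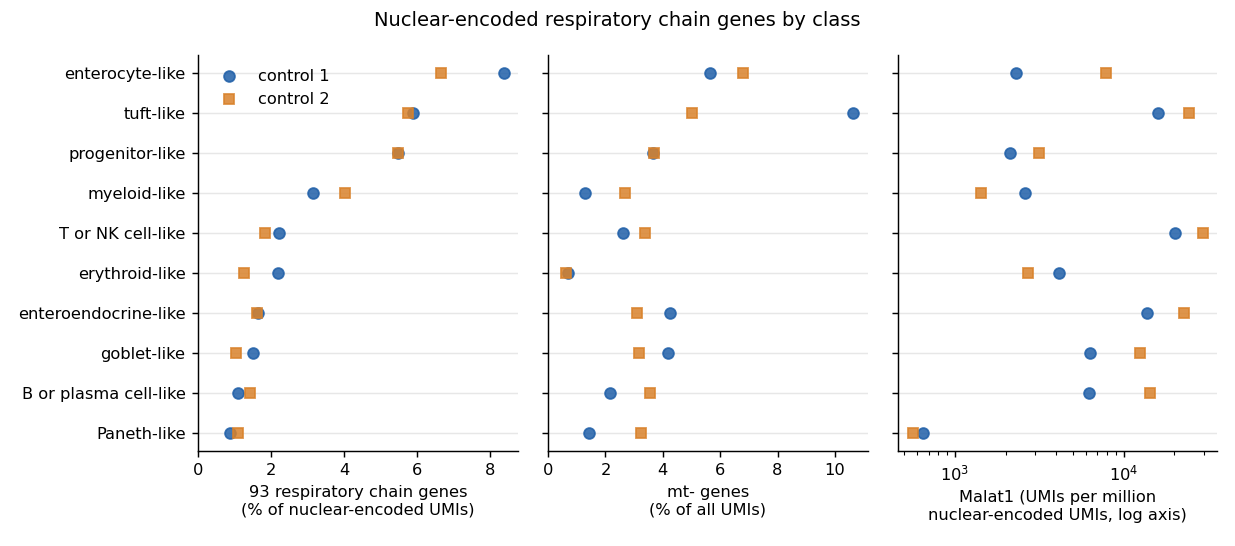
Summed level of the 93 genes (percent of nuclear-encoded UMIs), of the mt- genes (percent of all UMIs) and of Malat1 (CPM, log axis) in each named class; each symbol is 1 library. Enterocyte-like cells (8.37% and 6.65%) stand highest for the 93 genes, and the secretory and lymphoid classes lie at or under 2.22%.

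The order of the classes for the mt- genes was not the same as for the nuclear-encoded genes, and it depended on whether cells were summed or taken singly. In the sums the mt- genes made up 5.65% and 6.78% of all UMIs in enterocyte-like cells, 3.67% and 3.69% in progenitor-like cells, 4.18% and 3.17% in goblet-like cells and 2.60% and 3.38% among T or NK cell-like ones. For each mt- UMI there were 1.40 and 0.915 UMIs of the 93 genes in enterocyte-like cells, 1.43 and 1.43 in progenitor-like cells, 0.342 and 0.318 in goblet-like cells and 0.834 and 0.520 among T or NK cell-like ones. In the median cell the mt- share was 0.174% and 0.186% in enterocyte-like, 0.168% and 0.230% in progenitor-like, 2.55% and 2.24% in goblet-like and 2.45% and 3.22% among T or NK cell-like ones. The order of these classes differed between sums and single cells. Among them, enterocyte-like cells were highest in the sums and under the goblet-like and lymphoid cells by the median. Tuft-like cells, not among them, had summed mt- shares of 10.6% in control 1 and 5.01% in control 2. One enterocyte-like cluster of 195 and 98 deep cells, with mt- shares of 10.0% and 13.3%, held 10442931 of 20817980 and 3496239 of 11306142 enterocyte-like UMIs. Malat1, a nuclear RNA, was at 2292 and 7863 CPM in enterocyte-like, 6339 and 12443 CPM in goblet-like and 20109 and 29519 CPM among T or NK cell-like ones.

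From the crypt to the villus, enterocyte-like cells were compared with progenitor-like cells gene by gene over 2 sums against 2 (edgeR quasi-likelihood test with TMM scaling and the library as a block, Benjamini-Hochberg adjusted p under 0.05). Of the 93 genes, 60 were higher and 4 lower in enterocyte-like cells, beside 27.1% higher and 31.4% lower of the 10899 genes tested, and the median log2 difference was 0.77 against -0.12 over all tested genes. Among the 80 subunits 59 were higher and none lower (median 0.86). Of the 13 non-subunits 1 was higher and 4 were lower (median -0.27), a number of lower calls near the 31.4% over all genes.

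Within the complexes, 3 of 7 core and 21 of 31 accessory subunits of complex I were higher, with medians of 0.46 and 0.77. In complex II 3 of 4 were higher (median 0.88), in complex III 7 of 8 (0.83), in complex IV 11 of 13 (1.08) and in ATP synthase 14 of 17 (0.89). Among the core subunits of complex I that did not pass, Ndufs1, Ndufs7 and Ndufs8 had log2 differences of 0.10, 0.46 and 0.12. The 2 complex IV genes that did not pass were the isoforms Cox6b2 and Cox6a2. The lower 4 genes were all complex I assembly factors: Ndufaf7, Ndufaf6, Ndufaf2 and Ndufaf4.

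The largest rise was that of Cox7a1, the muscle-type form of subunit VIIa of complex IV. Its level was 668 and 637 CPM in enterocyte-like and 79.2 and 116 CPM in progenitor-like cells, so that the classes did not overlap. The fitted log2 difference was 3.20 ± 0.28 (SE; edgeR quasi-likelihood adjusted p = 9.82e-10). Its widespread partner Cox7a2 was at 1902 and 1368 against 949 and 940 CPM. Ndufa1, an accessory subunit in the membrane arm of complex I (chromosome X from 37187588 to 37191163, minus strand), was at 630 and 605 against 257 and 254 CPM, with a log2 difference of 1.73 ± 0.27 (adjusted p = 5.13e-06). Ndufa6, an accessory subunit of the LYR motif family, was at 1217 and 1002 against 532 and 510 CPM, with a log2 difference of 1.54 ± 0.26 (adjusted p = 1.77e-05). In all 3 genes each enterocyte-like value lay above both progenitor-like values.

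Among the assembly factors, Ndufaf7, a methyltransferase that acts in complex I assembly, was at 10.7 and 11.6 CPM in enterocyte-like and 29.8 and 39.2 CPM in progenitor-like cells (log2 difference -1.15 ± 0.25, edgeR adjusted p = 0.000356). Ndufaf6 was at 12.9 and 9.77 against 35.5 and 33.0 CPM (-1.14 ± 0.28, adjusted p = 0.00112). Ndufaf2, which has been found on a late assembly intermediate, was at 32.2 and 28.3 against 77.3 and 104 CPM (-1.10 ± 0.22, adjusted p = 0.00015). All 3 were lower in enterocyte-like cells of both libraries, while no subunit of complex I was called lower. Ndufaf2 overlaps B230220B15Rik and Smim15 on the other strand.

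These counts depended on the scaling and the cells summed. With total UMIs as the only scaling, 4 of the 93 genes were higher and 8 lower (median 0.28), because the median of all tested genes moved with it to -0.61; relative to that median the respiratory chain genes stood 0.89 to 0.90 higher under TMM, DESeq2 size factors and total UMIs alike. Without a ceiling on the mt- share 7 were higher and 5 lower, without the library block 38 and 4, and without the progenitor-like cells that held more immune than epithelial marker UMIs 40 and 6.

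**Figure D2:**
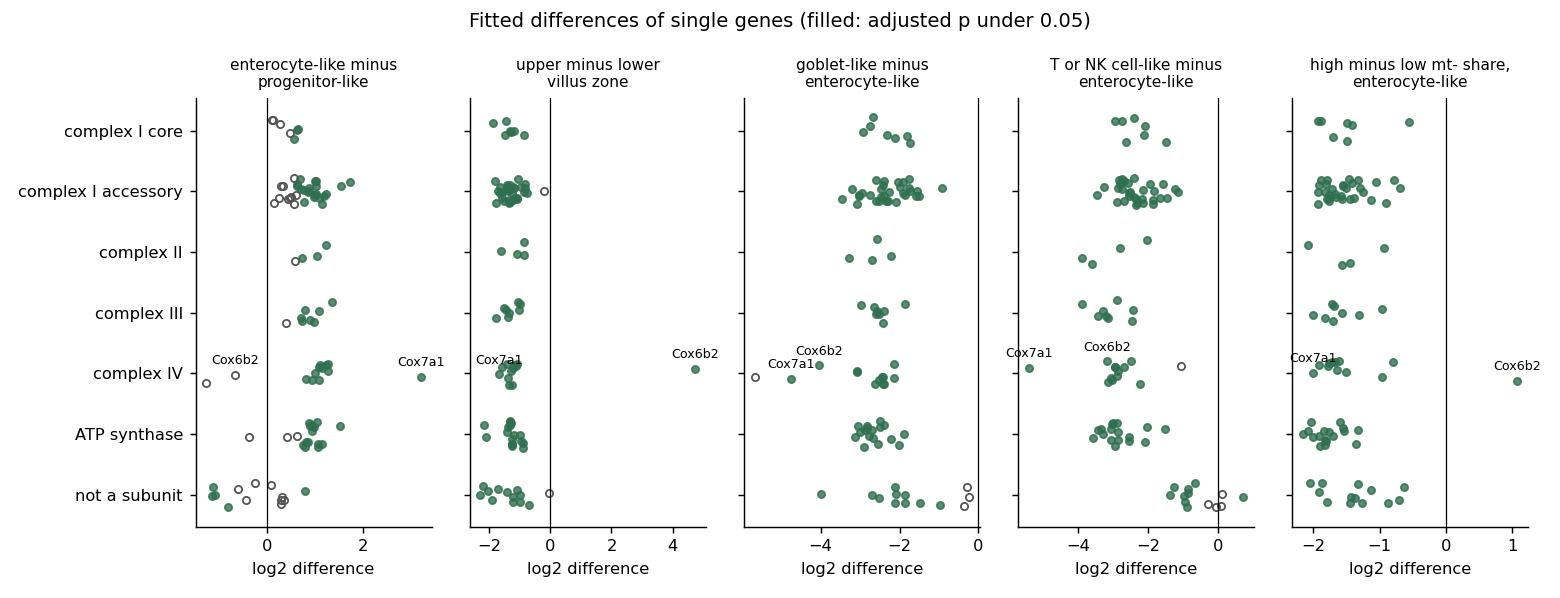
Fitted log2 difference of each respiratory chain gene (x axis) by role (rows) in the 5 comparisons; filled symbols passed an adjusted p of 0.05, open symbols did not. Cox7a1 stands at 3.20 in the first panel, where most non-subunits lie below the subunits, and Cox6b2 stands alone at 4.73 in the second.

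Along the villus, enterocyte-like cells with at least 20 UMIs of landmark genes were ordered by the share of upper landmarks. They were divided into 3 zones of equal cell number in each library (406 to 575 cells). Another 1706 and 1055 enterocyte-like cells had too few landmark UMIs and were not placed. The upper zone began at a landmark share of 0.574 in control 1 and 0.713 in control 2, so the zones of the libraries do not span the same positions. The respiratory chain genes made up 9.24% and 8.81% of nuclear-encoded UMIs in the lower zone, 8.68% and 7.81% in the middle zone and 5.38% and 2.60% in the upper zone. The share was higher in the lower zone than in progenitor-like cells and lower in the upper than in the middle zone in both libraries, with the libraries furthest apart in the upper zone. Against progenitor-like cells (5.46% and 5.48%) the upper zone was level in control 1 and lower in control 2. Without the Malat1-rich cluster described below the upper zone held 5.80% and 3.93%. Ribosomal protein genes made up 29.3% and 22.3% of nuclear-encoded UMIs in progenitor-like cells and 2.04% and 1.07% in the upper zone. Their part in these shares was not tested. All 6 complexes or subunit groups were highest in the lower zone: complex IV, for example, was at 1.32% and 1.31% in progenitor-like cells, 2.61% and 2.45% in the lower zone, 2.48% and 2.16% in the middle zone and 1.52% and 0.700% in the upper zone. The non-subunits were highest in progenitor-like cells, at 0.116% and 0.0969%, and lay at 0.0957% and 0.0856% in the lower and 0.0474% and 0.0291% in the upper zone.

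**Figure D3:**
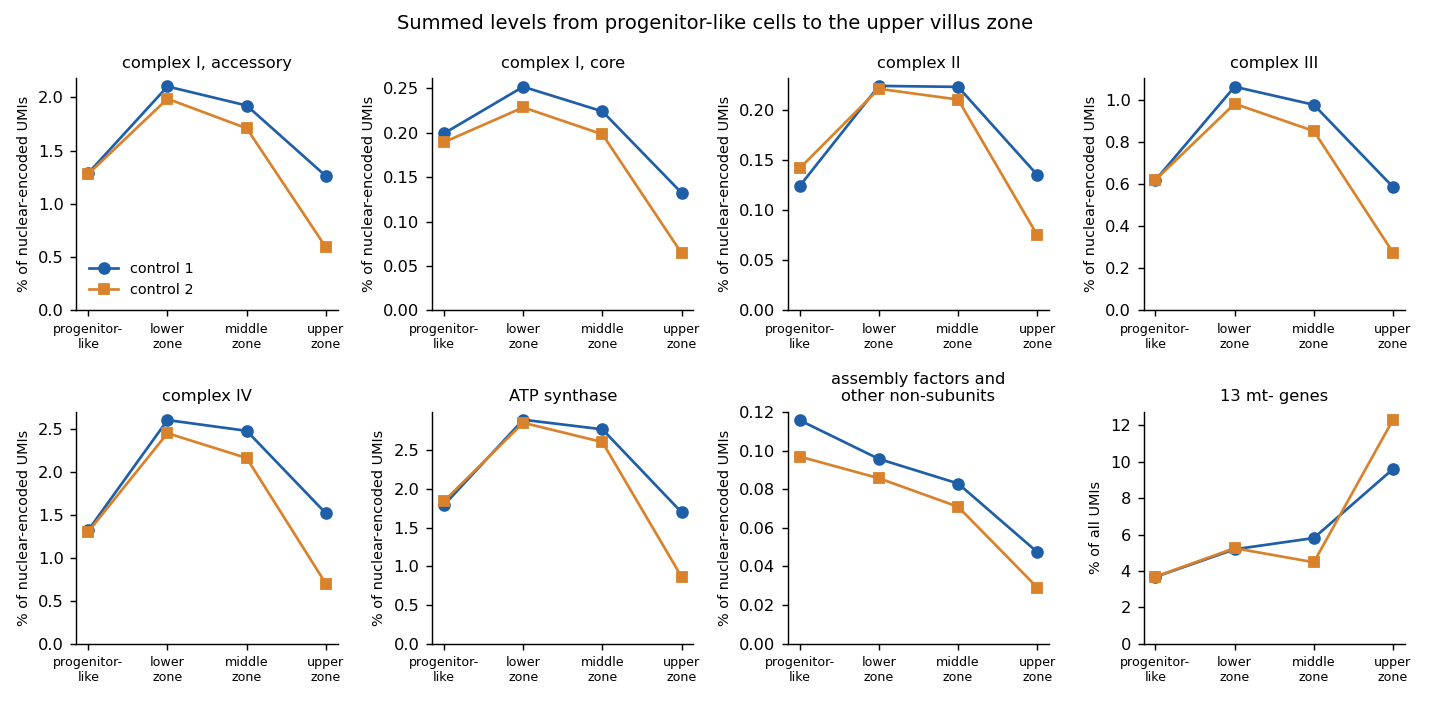
Summed level of each complex and of the non-subunits (percent of nuclear-encoded UMIs) and of the 13 mt- genes (percent of all UMIs) from progenitor-like cells through the 3 villus zones; each line is 1 library. The subunits peak in the lower zone, the non-subunits in progenitor-like cells, and the mt- genes reach 9.60% and 12.3% in the upper zone.

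Nuclear-encoded subunits of each complex are given here by level only. Apart from Cox5a of complex IV they are catalytic or core subunits. Ndufv1, which binds NADH in complex I, was at 213 and 221 CPM in progenitor-like cells, 293 and 298 in the lower, 283 and 290 in the middle and 175 and 94.8 CPM in the upper zone. Sdha, the flavoprotein of complex II, was at 243 and 298, then 379 and 393, 359 and 405, and 268 and 166 CPM. Uqcrc1, a core protein of complex III, was at 343 and 380, then 643 and 582, 555 and 538, and 396 and 244 CPM. These 3 genes were highest in the lower or middle zone in both libraries. Cox5a of complex IV was at 1119 and 988, then 2434 and 2084, 2275 and 1817, and 1365 and 568 CPM. Atp5b, the catalytic beta subunit of ATP synthase, was at 1379 and 1586, then 2061 and 2140, 2053 and 2078, and 1518 and 827 CPM. For Sdha, Uqcrc1, Cox5a and Atp5b the upper zone was above the progenitor-like level in control 1 and below it in control 2, and for Ndufv1 it was below in both. Ndufs1, which carries iron-sulfur clusters in complex I, did not share the rise in control 2, with 142 CPM in progenitor-like cells and 110 CPM in the lower zone.

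Between the upper and the lower zone 89 of 92 tested genes were lower and 1 higher, beside 20.5% lower and 17.7% higher of all 10742 genes tested, with a median log2 difference of -1.28 against -0.05. All 17 ATP synthase genes, all 8 of complex III, all 7 core subunits of complex I and all 4 of complex II were lower (edgeR quasi-likelihood test, adjusted p under 0.05). The mt- genes went the other way: 11 of 13 were higher in the upper zone, with a median of 1.14, and mt-Nd1 (0.71) and mt-Cytb (0.63) did not pass. The mt- share of the median cell was 0.225% and 0.351% in the upper and 0.139% and 0.140% in the lower zone, far under the summed 9.60% and 12.3% and 5.19% and 5.25%. For each mt- UMI there were 1.69 and 1.59 UMIs of the nuclear-encoded genes in the lower zone, 1.41 and 1.67 in the middle zone and 0.506 and 0.185 in the upper zone.

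The largest drops were those of 2 assembly factors and a subunit of ATP synthase. Ndufaf6 fell from 21.5 and 15.7 CPM in the lower to 6.17 and 1.49 CPM in the upper zone (log2 difference -2.29 ± 0.39, edgeR adjusted p = 0.000867). Sdhaf1, an assembly factor that helps to place iron-sulfur clusters in complex II, fell from 44.9 and 47.5 to 10.3 and 10.4 CPM (-2.19 ± 0.27, adjusted p = 0.000112); it overlaps E130208F15Rik on the other strand. Atp5g2, 1 of 3 genes for the membrane ring subunit c of ATP synthase, fell from 797 and 644 to 239 and 104 CPM (-2.18 ± 0.26, adjusted p = 9.14e-05). In each gene both upper values lay below both lower values. The other subunit c genes were at 1903 and 1593 against 650 and 247 CPM (Atp5g1) and at 1736 and 1827 against 1246 and 665 CPM (Atp5g3), and progenitor-like cells held Atp5g2 at 981 and 802 CPM, above the lower zone, and Atp5g3 at 916 and 1186 CPM, below it.

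Cox6b2, the testis-type form of subunit VIb of complex IV, was the exception. It had 6 and 1 UMIs in the lower zone (0.785 and 0.328 CPM) and 44 and 122 UMIs in the upper zone (10.1 and 36.3 CPM), a ratio of 12.8 in control 1 (95% exact interval 5.43 to 36.8, counting error only) and 111 in control 2 (19.5 to 4400). The fitted log2 difference was 4.73 ± 0.77 (edgeR adjusted p = 0.000663). Its widespread partner Cox6b1 was lower in the upper zone, at 1468 and 716 against 2490 and 2290 CPM. One enterocyte-like cluster of 47 and 97 cells held 26 and 105 Cox6b2 UMIs, or 61.6 and 72.4 CPM. Its leading genes included the upper landmarks Clca4a, Ada and Slc28a2 and also Ly6m, but no gene of the enterocyte marker list. Its marker score (mean log2 level over the median cluster) was 2.71 for enterocyte and 2.70 for goblet, so its name was nearly tied. Without that cluster the log2 difference was 3.07 (edgeR adjusted p = 0.00451), and with control 1 or control 2 alone it was 3.57 and 6.62. Cox6b2 was also found in progenitor-like cells, at 15.8 and 13.1 CPM.

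The cells of the upper zone differed in more than position. Malat1 was at 4891 and 18660 CPM in the upper against 1811 and 3917 CPM in the lower zone, and 46 and 96 upper zone cells belonged to the cluster just named, whose Malat1 level was 19721 and 33711 CPM and whose respiratory chain share was 1.40% and 0.846%. Without that cluster 88 genes were still lower (median -0.98), and among cells with at least 1000 CPM of Malat1 89 were lower (median -2.13). With a ceiling of 10% on the mt- share in place of 25%, 58 were lower (median -0.53), and without the library block 54.

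Goblet-like cells had lower levels than enterocyte-like cells in every complex. Of the 93 genes 89 were lower and none higher, beside 25.3% lower and 20.9% higher of all 10899 genes, with a median log2 difference of -2.44 against -0.07. The 4 that did not pass were the assembly factors Ndufaf2, Ndufaf7 and Sdhaf2 and the isoform Cox6a2. Of the 13 mt- genes 3 were lower and 10 did not pass (median -0.65) in these sums, while the median goblet-like cell had the higher mt- share, as given above. The median over the 80 subunits was -2.49 and over the 13 non-subunits -1.87.

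Cox7a1, with 42 and 56 UMIs in goblet-like cells, was at 28.1 and 17.3 CPM there and at 668 and 637 CPM in enterocyte-like cells (log2 difference -4.77 ± 0.32, edgeR adjusted p = 6.76e-12). The summed enterocyte markers in goblet-like cells, at 8520 and 2761 CPM against 91261 and 81517 CPM in enterocyte-like cells, moved with Cox7a1, and the part of enterocyte RNA in the goblet-like Cox7a1 level was not tested. Ndufaf4, an early complex I assembly factor, was at 2.00 and 1.85 against 36.6 and 30.6 CPM (-3.99 ± 0.42, adjusted p = 1.33e-08). Both genes were lower in goblet-like cells of both libraries by far more than the libraries differed. Cox6b2 had 0 and 2 UMIs in goblet-like and 61 and 145 in enterocyte-like cells. The ratio over both libraries was 0.0618 (0.00744 to 0.226, counting error only), and the fitted log2 difference was -4.05 (edgeR adjusted p = 0.0012). With control 1 alone the log2 difference was -7.46, which rests on 0 goblet-like UMIs, where the exact ratio interval was 0 to 0.818. At Leiden resolution 2.0 the log2 difference turned to 2.63. The Malat1-rich cluster, which held part of these enterocyte-like UMIs, had nearly equal enterocyte and goblet marker scores (2.71 and 2.70).

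The goblet-like difference was also present among Malat1-rich cells. With only cells of at least 1000 Malat1 CPM, goblet-like cells held 1.33% and 0.958% and enterocyte-like cells 6.61% and 4.84%, and 88 genes were lower (median -2.18). With only cells of at least 1% mt- UMIs, 86 were lower (median -2.04).

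T or NK cell-like cells were also low. Against enterocyte-like cells 87 of the 93 genes were lower and 1 higher, beside 35.4% lower and 39.7% higher of all genes (75.1% in either direction), with a median log2 difference of -2.56 against 0.14 over all tested genes. The 80 subunits had 79 lower (median -2.72), while the 13 non-subunits had 8 lower, 1 higher and 4 not past the threshold (median -0.84). The 13 mt- genes were all lower in these sums (median -1.91), although the median cell of this class had a higher mt- share than the median enterocyte-like cell.

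Cox7a1 was at 31.7 and 19.8 CPM against 668 and 637 CPM (log2 difference -5.42 ± 0.31, edgeR adjusted p = 5.21e-14). Uqcrfs1, the Rieske iron-sulfur protein of complex III, was at 120 and 79.9 against 945 and 810 CPM (-3.91 ± 0.29, adjusted p = 4.76e-12). Sdhd, a membrane anchor of complex II, was at 78.1 and 47.0 against 621 and 462 CPM (-3.89 ± 0.28, adjusted p = 2.3e-12). All lymphoid values were far under the enterocyte-like ones. The summed enterocyte markers, at 3742 and 2026 CPM in T or NK cell-like cells, were low there as well, and the part of enterocyte RNA in the lymphoid Cox7a1 level was not tested. Ndufaf7 was the gene that was higher, at 34.3 and 28.1 against 10.7 and 11.6 CPM (0.73 ± 0.24, adjusted p = 0.00726); the call ended with a 10% mt- ceiling (0.40), at Leiden resolution 2.0 (0.47) and in cells of at least 2000 UMIs (0.46), with adjusted p from 0.0547 to 0.126.

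The T or NK cell-like clusters were uneven. The cluster with the highest Malat1 level (432 and 564 cells, 43157 and 47486 CPM) held 0.886% and 0.618% respiratory chain UMIs, while 3 other large clusters held 1.84% to 2.37%. A small cluster (53 and 50 cells) with 4489 and 1177 CPM of Malat1 held 3.44% and 3.64%. Without the 3 clusters that had no gene of the T or NK marker list among their 10 leading genes 86 genes were lower (median -2.34). Among these 3, the cluster of 258 and 210 cells was led by other genes known from T cells, such as Cd8b1, Cd6, Cd5 and Thy1.

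Set against the mt- share of the same cells, the nuclear-encoded genes of enterocyte-like cells were at 9.67% and 8.55% of nuclear-encoded UMIs where mt- genes made up under 0.2% of a cell's UMIs, 9.51% and 8.45% from 0.2% to 1%, 9.01% and 8.66% from 1% to 5%, 8.20% and 7.07% from 5% to 10%, and 5.31% and 2.69% from 10% to 25%. Up to an mt- share of 5% the level stayed between 9.01% and 9.67% in control 1 and between 8.45% and 8.66% in control 2, and it was lowest above 10% in both libraries. Barcodes with 25% or more mt- UMIs, which were left out of the cells, held 1.45% and 0.923%. Malat1 rose over the same ranges from 254 and 466 CPM to 7136 and 19840 CPM, and the median cell went from 2599 and 2654 UMIs in the lowest to 28958 and 17747 UMIs in the highest range.

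**Figure D4:**
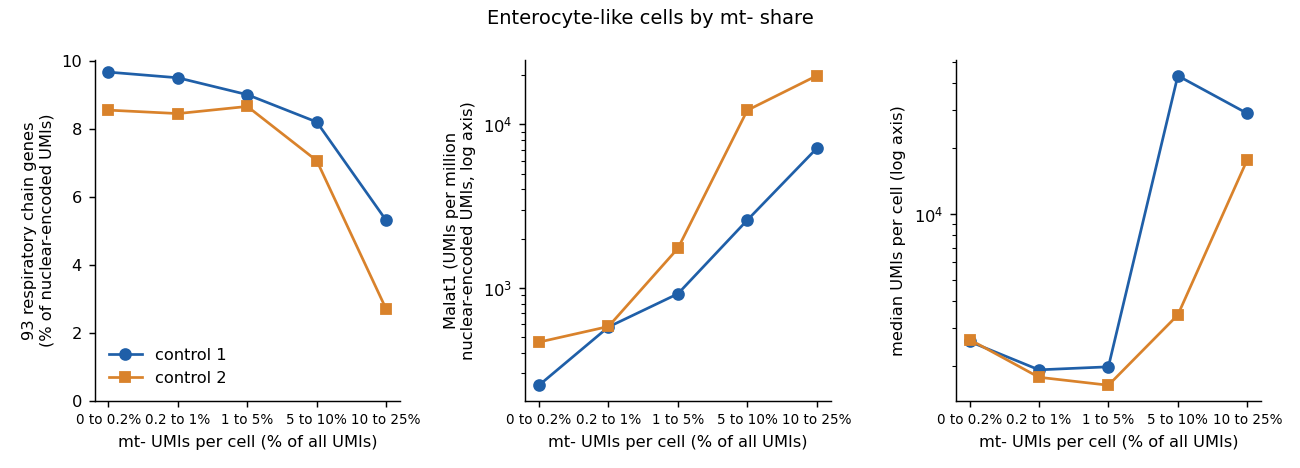
Enterocyte-like cells by their mt- share: summed level of the 93 genes (percent of nuclear-encoded UMIs), Malat1 (CPM, log axis) and median UMIs per cell (log axis); each line is 1 library. The respiratory chain share stays between 8.45% and 9.67% up to a 5% mt- share and is 5.31% and 2.69% in the highest range, where Malat1 is highest.

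Between cells of 10% to 25% and cells of under 5% mt- UMIs, 91 of 92 tested genes were lower and 1 higher, beside 31.8% lower and 30.2% higher of all 9788 genes tested (62.0% in either direction), with a median log2 difference of -1.63 against -0.05. Atp5g2 was at 265 and 117 against 681 and 539 CPM (-2.16 ± 0.27, edgeR adjusted p = 1.4e-05). Sdhd was at 324 and 139 against 763 and 636 CPM (-2.09 ± 0.27, adjusted p = 2e-05). Atp5g1 was at 718 and 290 against 1685 and 1313 CPM (-2.08 ± 0.29, adjusted p = 3.64e-05). In each the high range lay below the low range in both libraries. The gene called higher was Cox6b2 (1.08, adjusted p = 0.0335), which went from 6.94 to 31.5 CPM in control 2 and from 3.51 to 4.85 CPM in control 1, where the TMM-scaled log2 difference by itself was -0.04.

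Among cells with at least 1000 Malat1 CPM, 78 genes were lower (median -1.38), and without the Malat1-rich upper villus cluster 90 were lower (median -1.39). Depth and Malat1 moved with the mt- share in these cells, and their part in the difference was not tested. Over single cells, Spearman's rho between the respiratory chain share and the mt- share was -0.22 in control 1 (3429 cells) and -0.23 in control 2 (2275 cells) for enterocyte-like cells, -0.40 and -0.32 for goblet-like and -0.53 and -0.68 for T or NK cell-like cells. With Malat1 it was -0.19 and -0.25, -0.71 and -0.69, and -0.69 and -0.68 in the same order. These values describe cells that share a library, a depth range and a common denominator.

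The isoform pairs of complex IV differed in where they were found. Cox7a1 was at 739 and 842 CPM in the lower, 733 and 783 in the middle and 325 and 185 CPM in the upper zone. Within progenitor-like cells it was at 215 and 311 CPM in the cluster led by Aldh1b1, Gpx2 and Csrp2 and at 32.4 and 38.1 CPM in the cluster led by Olfm4 and cycling genes such as Top2a. The summed enterocyte markers moved with it, at 11757 and 15249 against 3448 and 2956 CPM, and their part in this difference was not tested. Cox7a2 was found in every class, from 123 and 184 CPM in Paneth-like to 1902 and 1368 CPM in enterocyte-like cells.

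Cox6a2, the muscle-type form of subunit VIa, was found mostly in 1 cluster that stayed unnamed. This cluster of 28 and 11 cells was led by Ly6d, Siglech, Cox6a2 and Bst2, of which Siglech and Bst2 are known from plasmacytoid dendritic cells, and Cox6a2 had not been used to form it. It held 1475 and 2331 CPM of Cox6a2, and 435 of the 462 Cox6a2 UMIs of all kept cells in control 1 (94.2%) and 276 of 310 in control 2 (89.0%). Enterocyte-like cells held it at 1.07 and 0.380 CPM, T or NK cell-like cells at 0.436 and 1.22 CPM, and progenitor-like cells at 0 and 9.94 CPM (0 and 19 UMIs, where 0 allows up to 3). Cox6a1 was present in this cluster at 254 and 304 CPM, and Itgad, which overlaps Cox6a2 on the other strand, at 61.0 and 59.1 CPM, below its 97.7 and 137 CPM in T or NK cell-like cells, where Cox6a2 was near 0. The summed respiratory chain share of this cluster, 2.28% and 2.41%, lay within the range of the other immune clusters.

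**Figure D5:**
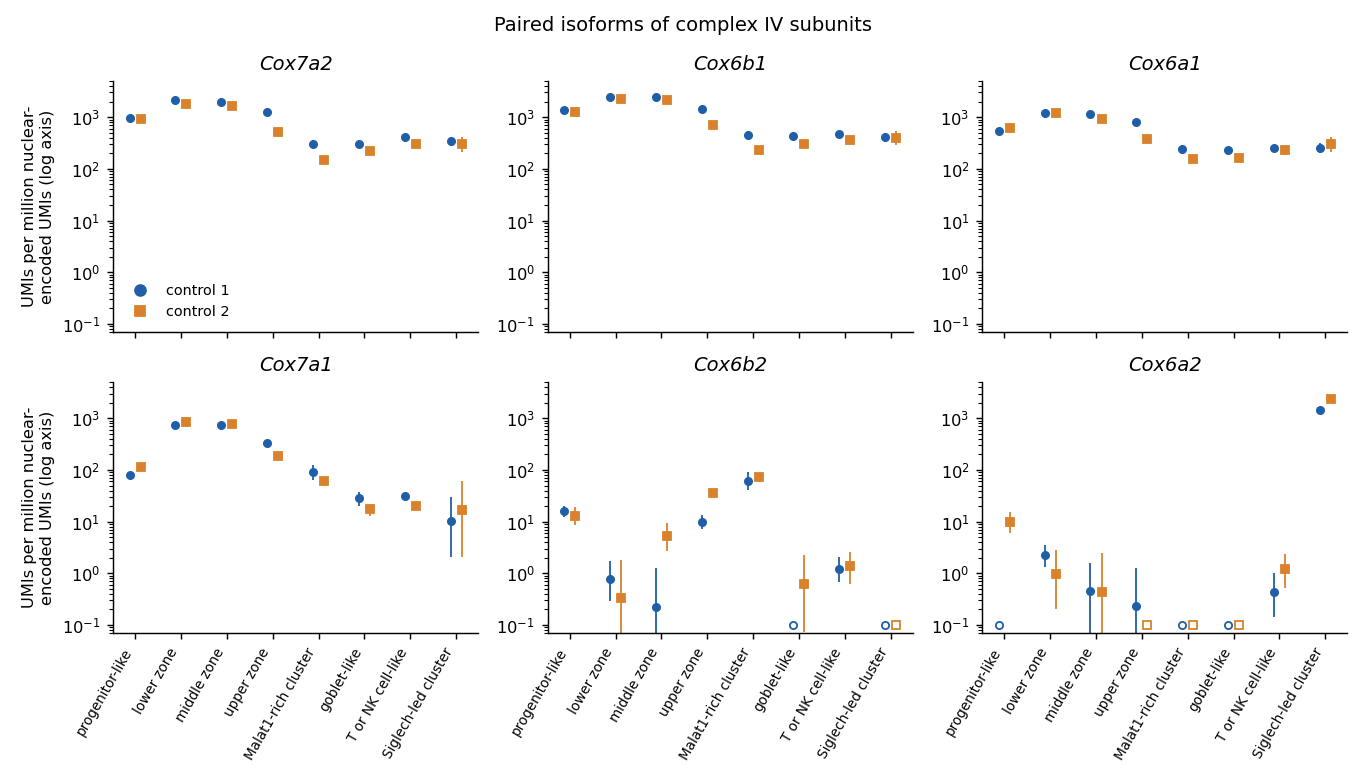
Levels (CPM, log axis) of 3 widespread complex IV isoforms (top) and their restricted partners (bottom) by cell group; each symbol is 1 library, bars are 95% exact Poisson intervals for counting error, and open symbols at the foot are counts of 0. Cox7a1 is highest in the lower and middle zones (733 to 842 CPM), Cox6b2 in the Malat1-rich cluster (61.6 and 72.4 CPM) and Cox6a2 in the Siglech-led cluster (1475 and 2331 CPM).

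Other mitochondrial and energy genes were counted between progenitor-like and enterocyte-like cells in the same way, beside the 27.1% higher and 31.4% lower of all genes. Of 18 citric acid cycle genes 8 were higher and 3 lower (median 0.16), with Ogdh at 473 and 500 against 126 and 161 CPM and Idh2 at 30.8 and 14.7 against 113 and 99.9 CPM. Of 17 glycolysis genes tested 13 were higher and 1 lower (median 1.29); the lower one was Hk2, a hexokinase, at 1.94 and 10.3 against 33.6 and 46.0 CPM. Assembly genes outside the symbol rule had 12 higher and 7 lower of 36 (median 0.13), from Bcs1l, needed to place the Rieske protein in complex III, at 3.31 and 3.04 against 16.9 and 9.94 CPM, to Cox17, a copper chaperone, at 537 and 605 against 230 and 318 CPM.

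Genes of mitochondrial gene expression and biogenesis had 3 higher and 9 lower of 20 (median -0.62). Ppargc1a, a coactivator known for driving mitochondrial biogenesis, was higher, at 116 and 98.9 against 13.1 and 25.6 CPM (3.02 ± 0.29, edgeR adjusted p = 2.87e-09), and its relative Pprc1 was lower, at 1.27 and 1.61 against 14.4 and 16.7 CPM (-2.98 ± 0.39, adjusted p = 4.1e-07). Of 27 mitochondrial carrier and import genes 7 were higher and 12 lower, and the genes with the largest difference in each direction were both ATP/ADP carriers: Slc25a5 was at 2680 and 2456 against 1118 and 1206 CPM and Slc25a4 at 7.23 and 2.94 against 38.7 and 36.1 CPM. The 13 mt- genes were all higher in the sums (median 1.22), while the median cell's mt- share was 0.174% and 0.186% in enterocyte-like and 0.168% and 0.230% in progenitor-like cells, which is no rise. Several of these counts, such as the carriers higher, lie near the share over all genes, and they carry no test of the lists themselves.

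Genes with and without the promoter letters shown above had similar medians. Genes with and without the NRF1 letters had median log2 differences of 0.89 (21 genes) and 0.73 (56 genes) between enterocyte-like and progenitor-like cells and of -1.23 and -1.35 between the upper and lower zones. With and without CCGGAAG the medians were 0.86 (22) and 0.73 (55), and -1.27 and -1.30. The log2 differences of all 93 genes ran from -1.27 to 3.20 in the first comparison.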

How the data were processed

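The 2 deposited matrices of UMI counts, 1 per control library, were analysed; per the file headers the authors made them with Cell Ranger 7.1.0, and the submitters' processing notes list releases 6.1 and 7.1.0 of it beside GRCm38 and mm10 as builds. The barcode rule, annotation release, and the use of introns, strand and multi-mapping reads are not given in the sources used here. Depth was 54451793 and 36139325 UMIs in control 1 and control 2. Barcodes with at least 500 genes and under 25% mt- UMIs were kept, with no limit on hemoglobin UMIs. Scrublet called 5 of 7120 (0.0702%) and 28 of 4742 (0.590%) barcodes, which were removed. Both shares, above all that of control 1, lay far under the expected rate of 6% given to it. It may not have worked, and doublets may remain in both libraries.

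Cells of both libraries were clustered with scanpy 1.11.5 (Leiden resolution 1.0) without the respiratory chain, mt-, ribosomal protein and other listed genes, and clusters were named from marker lists. UMI counts were summed per library and class, villus zone or mt- share range. Sums of the same kind were fitted together, the zones with progenitor-like cells, so the spread was estimated over all groups of a fit. A class entered if it was named and had at least 20 cells in each library. Sums were tested in edgeR 4.0.16 (R 4.3.3; quasi-likelihood test, TMM, low-count filter, library as a block, since each suspension gave both groups). Benjamini-Hochberg adjustment, with a threshold of 0.05, covered genes past the filter except 2 kinds. These were the highly variable genes behind the clusters, and the marker and villus landmark genes. Counts, percentages and medians given for all genes or all tested genes therefore leave both kinds out. DESeq2 1.42.0 and the other alternatives are in the closing section; the code was tested on simulated data. Fitted differences use TMM scaling and are not plain ratios of levels.

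Genes named with tests were the 3 largest called differences in each direction with the same sign in both libraries. Isoforms, catalytic or core subunits and Cox5a were given by level, and other lists by 1 gene in each direction. Genes named in counts of 5 or fewer, and the clusters singled out, were chosen after their values were seen. The members and lists were chosen with earlier results of these data known. Intervals cover counting error only. Promoter windows are from RefSeq (GRCm38.p6) and gene positions from GENCODE M21 (GRCm38).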

Additional observations from a re-analysis of the deposited data

Results flagged for a closer look

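Cox6a2 stood out in cells that no comparison used. In the unnamed cluster with Ly6d, Siglech, Cox6a2 and Bst2 among its leading genes, its level was 1475 CPM in control 1 (28 cells) and 2331 CPM in control 2 (11 cells), above the limit that a count of 0 allows. The same cells held Cox6a1 at 254 and 304 CPM and Itgad, on the other strand of the same locus, at 61.0 and 59.1 CPM.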

How the results depend on the processing

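Each alternative changed 1 choice. Those that kept only cells with at least 1% mt- UMIs or 1000 Malat1 CPM were chosen after seeing the data. Also chosen then were those that left out immune-like progenitor-like cells or the Malat1-rich enterocyte-like cluster. The same holds for leaving out the T or NK cell-like clusters with no listed marker among their leading genes. Between enterocyte-like and progenitor-like cells 60 genes were higher, and 7 without an mt- ceiling, 37 at Leiden resolution 0.5 and 4 with total UMIs only. The 4 lower became 1 with cells thinned to 2000 UMIs and 8 with total UMIs only. The median of 0.77 became 1.04 with a 10% mt- ceiling or at least 2000 UMIs, 0.24 without a ceiling, 0.59 and 0.94 at Leiden resolutions 0.5 and 2.0, 0.54 without immune-like cells, 0.61 with DESeq2 size factors, 0.28 with total UMIs only and 0.98 without a low-count filter. With 1 library at a time it was 0.76 to 0.98. With all UMIs as denominator the progenitor-like share was 5.27%. Between the zones 58 genes were lower with a 10% ceiling (median -0.53), and the median was -2.002 with at least 1% mt- UMIs, -2.13 with at least 1000 Malat1 CPM and -1.76 to -0.90 with 1 library at a time.

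For goblet-like cells 1 gene was higher at Leiden resolution 2.0, and the median of -2.44 moved to -2.82 with a 10% ceiling, -2.12 without one, -2.58 without the 6% highest Scrublet scores, -2.72 at Leiden resolution 2.0, -2.53 with each library clustered alone, -2.51 with at least 2000 UMIs, -3.06 thinned, -2.04 with at least 1% mt- UMIs, -2.18 with at least 1000 Malat1 CPM, -2.10 with DESeq2 size factors, -2.52 with total UMIs only, -2.55 without a filter and -2.57 without the Malat1-rich cluster, and was -2.57 to -2.50 with 1 library at a time. For T or NK cell-like cells the gene called higher was lost (0 genes) with a 10% ceiling, at Leiden resolution 2.0, with at least 2000 UMIs and when thinned, and 4 were higher with total UMIs only. In the same order of settings the median of -2.56 became -2.93, -2.18, -2.70, -2.82, -2.68, -2.77, -3.00, -2.14, -2.10, -2.41, -1.74, -2.65 and -2.69. It was -2.50 with Scrublet-marked barcodes kept, -2.53 at Leiden resolution 0.5 and -2.67 with only the compared groups. Without the clusters with no listed marker among their leading genes it was -2.34, and with 1 library at a time -2.66 to -2.63. Between high and low mt- share the gene called higher was lost (0 genes) at Leiden resolution 2.0, when thinned, with at least 1000 Malat1 CPM, without the Malat1-rich cluster, by DESeq2's Wald test and without the block, and the median was -1.94 to -1.36 with 1 library at a time.

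Without the library as a block, which pairs groups from the same suspension, 38 genes in place of 60 were higher in enterocyte-like than progenitor-like cells, 54 in place of 89 lower in the upper zone, and 0 in place of 1 higher with a high mt- share. Calls in all genes tested moved with scaling too: 2954 higher and 3418 lower became 1570 and 4711 with total UMIs only and 2505 and 3942 with DESeq2 size factors between enterocyte-like and progenitor-like cells. They became 3252 and 2025 from 2276 and 2755 for goblet-like cells (DESeq2 size factors), 6049 and 2480 from 4329 and 3855 for T or NK cell-like cells and 3837 and 2008 from 2953 and 3116 for the mt- share (both total UMIs only). Cox6b2 between goblet-like and enterocyte-like cells reversed to 2.63 at Leiden resolution 2.0. Atf3, enterocyte-like minus progenitor-like, reversed to -0.40 at that resolution and to -0.001028 without the Malat1-rich cluster. Among the summary values under these alternatives 235 stayed within their limits and 68 moved. The cause was not tested. For a median the limit was the SD of the 2 values with 1 library at a time. It was wide for the zones (-1.76 and -0.90), so that medians of -1.78 without an mt- ceiling and -0.85 at Leiden resolution 2.0 counted as within it. With 2 libraries, 45 of 50 simulated 4-fold drops but 26 of 50 simulated 2-fold drops were found between enterocyte-like and progenitor-like sums (12234 genes). In the same order 41 and 16 were found between the zones, and 45 and 18 between goblet-like and enterocyte-like sums. For T or NK cell-like cells 43 and 27 were found, and for the mt- share 41 and 28. Smaller differences could therefore be missed.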
